A study of Drosophila melanogaster with 9 samples.

Results

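Fly embryo cells of different muscle reporters were set against each other on microarrays: cells marked through a muscle enhancer of apterous (ap_GFP, 3 arrays) and cells marked through a muscle enhancer of slouch (slou_RFP, 3 arrays). These are 6 of the 9 arrays of the series and were chosen by their sample titles, with all 16377 probe sets used. The ap_GFP group carried the transgene apterous-GFP and the slou_RFP group slouch-RFP. The remaining group, twist_actin-GFP (twi_actin_GFP, 3 arrays), served here as a level for reference and entered the estimate of spread. All groups were Drosophila melanogaster embryos of stage 13, collected over 2 h and aged for 8 h at 25 °C. Embryos were dissociated, fluorescent cells were sorted, and each array had its own sort, labelling and hybridization. No mutation or treatment is given for any group, and the genotype beyond the transgene is not stated in the labels.

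Each body wall muscle of the fly embryo starts from a founder cell, which fuses with fusion-competent myoblasts. A founder and its muscle are given their size, position and attachments by combinations of transcription factors called identity genes. The LIM-homeodomain gene ap is one of these in the lateral transverse muscles, and the homeodomain gene slou (also S59) acts in other lateral, dorsal and ventral muscles. Comparing the reporters asks which transcripts tell one muscle subset from the other.

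A fluorescent protein driven by an enhancer marks cells in which that enhancer is active, and says nothing of what each sorted cell transcribes besides. On resorting, 74% of ap_GFP cells, 87% of slou_RFP cells and 95% of twi_actin_GFP cells were positive, per the labels, so that other cells were present in each sort. Values are log2 RMA signals, in which a step of 1 is a 2-fold change. Array medians lay between 4.47 and 4.61. Level differences are given as ap_GFP minus slou_RFP, so that a positive value is a higher level on ap_GFP. In sorted samples, fewer cells of a type and less RNA per cell cannot be told apart.

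One array on each side stood apart from its own group, and this was so before any gene was compared. The correlation over all probe sets was 0.996 between ap_GFP replicates 1 and 2 and 0.998 between slou_RFP replicates 1 and 3. Across the reporters r was between 0.996 and 0.997 for the 4 cross pairs of these arrays. That was no lower than for the ap_GFP pair and lower than for the slou_RFP pair. By contrast ap_GFP replicate 3 reached 0.984 and 0.986 with its own group, and slou_RFP replicate 2 reached 0.970 with both of its own. Between these 2 arrays r was 0.986. Probe sets are not independent replicates, and all of these values are descriptions.

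The same order appeared in the number of probe sets that differed by more than 2-fold between single arrays. Between slou_RFP replicates 1 and 3 there were 0 such probe sets, and between ap_GFP replicates 1 and 2 there were 65. The 4 pairs that cross the reporters without the departing arrays had 38 to 53. Pairs with ap_GFP replicate 3 and one of the other 4 arrays had 607 to 638. Pairs with slou_RFP replicate 2 and one of those 4 arrays had 1393 to 1515, or 8.51% to 9.25% of all probe sets. By correlation the nearest array belonged to the same reporter for 2 of the 6 arrays, slou_RFP replicates 1 and 3. Results are therefore given with all 6 arrays, and values without ap_GFP replicate 3 and slou_RFP replicate 2 are set beside differences that move with them. These 2 arrays were picked from the same values, so that leaving them out narrows the spread within groups. Standard errors and p values of that fit can thus be too small, and its counts too high.

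**Figure D1:**
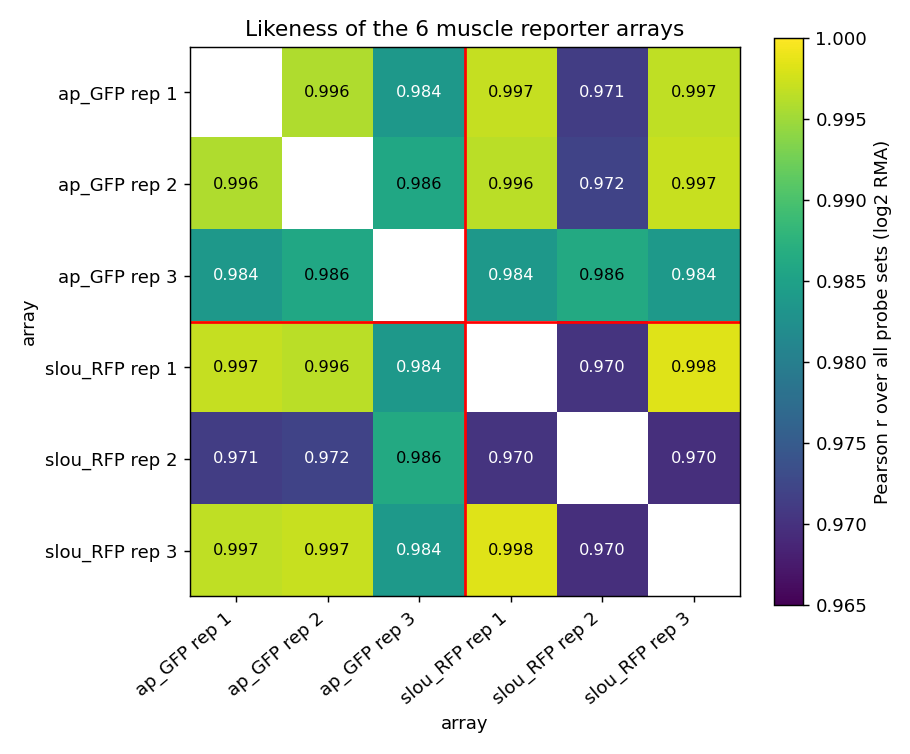
Pearson r over all probe sets between each pair of the 6 muscle reporter arrays, with red lines between ap_GFP (reps 1 to 3) and slou_RFP (reps 1 to 3). The 4 arrays other than ap_GFP rep 3 and slou_RFP rep 2 correlate at 0.996 and 0.998 within the reporters and at 0.996 to 0.997 across them.

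Over all probe sets no difference between ap_GFP and slou_RFP passed the test. In limma 0 of 16377 probe sets (0%) reached an adjusted p below 0.05, and the smallest adjusted p was 0.599. At an unadjusted p below 0.05 there were 430 probe sets (2.63%), of which 200 were higher (1.22%) and 230 lower (1.4%) on ap_GFP. An ordinary linear model without moderated variances also called 0, with 530 at an unadjusted p below 0.05. On 1164 probe sets (7.11%) the 3 arrays of one reporter all lay above the 3 of the other, with ap_GFP the higher on 527 (3.22%) and the lower on 637 (3.89%).

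A lack of calls does not show equal expression, and the intervals give the size of difference that these arrays bound. The differences had a median of 0.00 and an SD of 0.175 over all probe sets, and 98.7% of them were under 0.5 in size. The 95% interval of a difference reached 0.31 to either side at the median and less than 1 for 96.7% of probe sets. For most probe sets the data thus bound a difference in signal between the reporters to less than 2-fold around the estimate. Dim probe sets are counted here too, and for them a narrow interval does not bound a difference in expression. The spread behind these intervals was not the same in each group. The median SD over probe sets was 0.14 on ap_GFP, 0.18 on slou_RFP and 0.11 on twi_actin_GFP, which shares the estimate. With the 6 muscle reporter arrays alone 233 probe sets (1.42%) had an unadjusted p below 0.05, and 0 were called.

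The submitters' own rule for their comparisons with the twist reporter was a 1.7-fold change or more, together with an unadjusted p under 0.05. Set between the muscle reporters, it was met by 11 probe sets (0.0672%), 7 higher (0.0427%) and 4 lower (0.0244%) on ap_GFP. Without ap_GFP replicate 3 and slou_RFP replicate 2 it was met by 41, 34 higher (0.208%) and 7 lower (0.0427%), and 7 probe sets met it both ways. In that fit 0 probe sets were called, the smallest adjusted p was 0.0659, and 716 (4.37%) had an unadjusted p below 0.05, 347 higher (2.12%) and 369 lower (2.25%) on ap_GFP.

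The genes behind the reporters did not separate the groups. Signals of ap itself were 8.70, 8.45 and 9.76 in the ap_GFP arrays and 8.51, 9.16 and 8.53 in the slou_RFP arrays, while twi_actin_GFP gave 7.18, 7.04 and 7.01. The highest ap_GFP and the highest slou_RFP values are those of the departing arrays, and the groups overlap. The difference was 0.24 ± 0.32 (SE, 95% interval -0.49 to 0.97; limma, adjusted p = 0.994), and 0.06 without the departing arrays. Signals of slou were 10.77, 10.44 and 10.40 in the ap_GFP arrays and 10.73, 9.97 and 10.77 in the slou_RFP arrays, while twi_actin_GFP gave 7.39, 8.20 and 8.33. The difference was 0.05 ± 0.29 (-0.61 to 0.71; limma, adjusted p = 0.996), and -0.15 without the departing arrays. For both genes the interval lies within 2-fold in either direction. The labels could therefore not be checked against each other through these genes, and ap_GFP and slou_RFP are names of labelled arrays throughout. Probe sets for GFP and RFP were not identified here.

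Among the other factors of lateral transverse muscles, caup, ara and lms were highest on the departing array of each reporter. The Iroquois homeodomain genes caup and ara act in these muscles. Signals of caup were 5.49, 7.25 and 10.32 on ap_GFP replicates 1, 2 and 3, and 5.86, 9.95 and 5.99 on slou_RFP. Those of ara were 6.06, 7.07 and 9.50 on ap_GFP and 6.19, 9.16 and 6.39 on slou_RFP. For both genes the departing array of each group was far above the rest, and ap_GFP replicate 2 came next. The homeodomain gene lms (lateral muscles scarcer) behaved alike, at 5.98, 6.45 and 8.53 on ap_GFP and at 5.72, 8.28 and 5.69 on slou_RFP.

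With such spread within a group the intervals were wide. The difference was 0.42 for caup (95% interval -2.64 to 3.49), 0.29 for ara (-1.93 to 2.52) and 0.42 for lms (-1.43 to 2.27), each at adjusted p = 0.994 in limma. Differences of several fold between the reporters are thus not bounded for these 3 genes. On twi_actin_GFP caup was at 7.98, 8.71 and 8.59, higher than on 4 of the muscle reporter arrays. The zinc finger gene Kr, an identity factor of several muscles, stood at 7.66, 7.69 and 8.55 on ap_GFP and at 8.08, 7.82 and 8.12 on slou_RFP, a difference of -0.04. On the 4 arrays without the departing ones Kr was lower on both ap_GFP arrays, and the difference was -0.42, at an adjusted p of 1.00 in limma.

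The remaining lateral transverse list members, the Iroquois gene mirr (-0.16) and the transcriptional coactivator gene eya (0.10), also overlapped between the reporters. Without the departing arrays their differences were 0.03 and -0.11. Over all probe sets the groups were parted on 7.11%, so that a count of 0 among few genes says little. Of the 7 measured genes on this list 0 were called and 0 parted the groups. Their median difference was 0.24 with all 6 arrays and 0.06 without the departing arrays, beside 0.02 and 0.01 over all named genes.

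Genes of slouch-expressing and neighbouring muscles were closer together. The Pax gene Poxm gave 6.74, 6.40 and 6.69 in the ap_GFP arrays and 6.60, 6.37 and 6.53 in the slou_RFP arrays, with 5.45 to 5.62 in twi_actin_GFP. The Poxm difference between the reporters was 0.11 ± 0.12 (-0.15 to 0.37; limma, adjusted p = 0.994). This interval excludes a 1.7-fold difference in either direction, and the difference was 0.00 without the departing arrays. The homeodomain gene Ptx1 differed by -0.13 (-0.45 to 0.19), and by 0.06 without the departing arrays, and the ladybird genes lbe and lbl of the segment border muscle by -0.20 and 0.08. All lbe and lbl values on the 6 arrays lay below the array medians, so that their presence is not shown. Of the 6 measured genes on the slouch list 0 were called, with a median difference of 0.01.

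**Figure D2:**
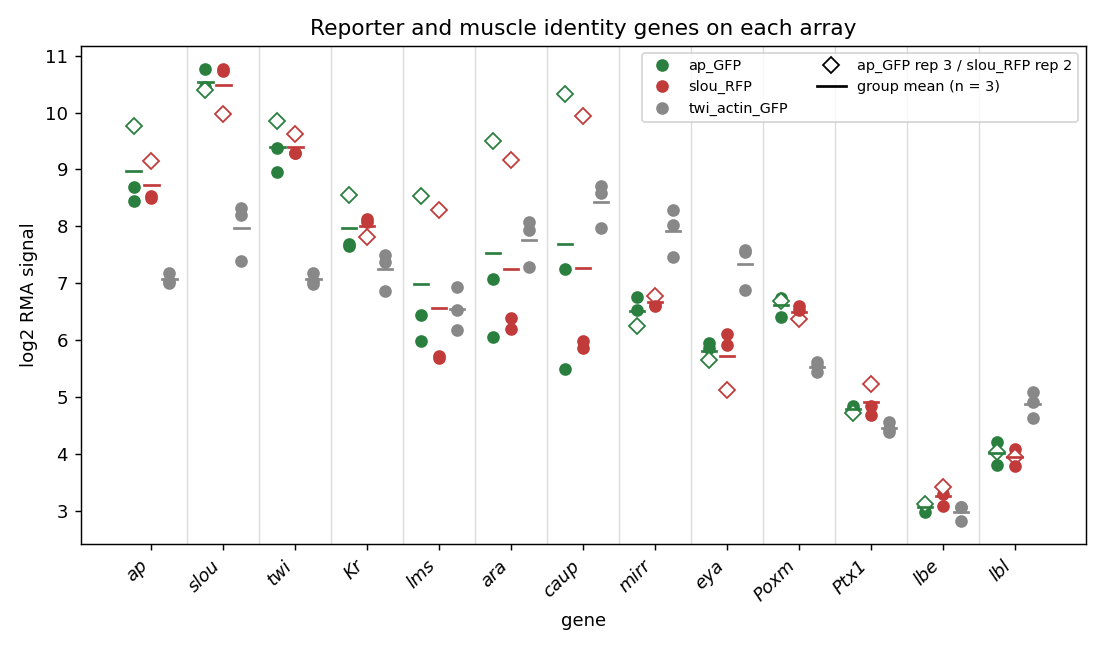
Log2 RMA signal of the reporter genes and the measured muscle identity genes on each array, with bars for the mean of 3 arrays and open diamonds for ap_GFP rep 3 and slou_RFP rep 2. For ap, twi, lms, ara, caup and the dim lbe the diamonds stand above both other arrays of their group, and the groups overlap for every gene shown.

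Further identity genes were counted as a further list of 15 measured members, and 0 were called. The list's median difference was -0.08, and its members ran from -0.58 to 0.43. Of them 11 were below 0 and 4 above, beside 4785 of 10563 named genes below 0. The mean level of the list was lowest on the departing arrays, at 5.82 and 5.87. It was 6.31 to 6.37 on the remaining ap_GFP arrays and 6.38 to 6.45 on the remaining slou_RFP arrays. Values of vestigial (vg), which acts with scalloped in muscle subsets, were 7.91, 7.72 and 8.45 on ap_GFP and 7.76, 7.15 and 7.88 on slou_RFP, a difference of 0.43 that became -0.01 without the departing arrays. The homeodomain gene eve was at 5.85 to 6.09 on ap_GFP and at 5.99 to 6.14 on slou_RFP, with a difference of -0.11 ± 0.09 (-0.32 to 0.10). The bHLH gene twi differed by -0.01 ± 0.21 (-0.49 to 0.47), and by -0.13 without the departing arrays. On twi too the departing array was the highest of each group, at 9.85 on ap_GFP and 9.63 on slou_RFP.

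The largest differences among genes whose arrays did not overlap are given next. The 10 per direction were ranked by size among genes with a mean at or above 4.52, the median signal of the 6 arrays, in the higher group. Since they were picked for their separation, their values are descriptions, and the smallest adjusted p among the 20 was 0.599 in limma. CG33229, an uncharacterised gene, stood at 9.52, 9.90 and 9.86 on ap_GFP and at 8.82, 8.85 and 8.82 on slou_RFP. Its difference of 0.93 ± 0.13 (0.64 to 1.22, 1.90-fold; limma, adjusted p = 0.599) stayed at 0.89 without the departing arrays. On this gene the departing arrays did not depart, and twi_actin_GFP, at 9.88 to 10.22, overlapped ap_GFP.

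CG7131 had the same adjusted p of 0.599 in limma and stood at 5.97, 5.93 and 5.96 on ap_GFP and at 5.01, 5.36 and 5.26 on slou_RFP. Its difference was 0.74 ± 0.10 (0.51 to 0.98), and 0.82 without the departing arrays. The gene tinc (tincar), which encodes a transmembrane protein, was at 8.16, 8.22 and 7.97 on ap_GFP and at 7.56, 7.32 and 7.52 on slou_RFP. Here the slou_RFP arrays were near twi_actin_GFP (7.36 to 7.51) and the ap_GFP arrays were above both. The tinc difference was 0.65 ± 0.11 (0.41 to 0.89; limma, adjusted p = 0.880), and again 0.65 without the departing arrays. Its other 3 probe sets were dimmer and differed by 0.04 to 0.37 in the same direction.

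The ubiquitin protease gene faf (fat facets) was at 5.70, 5.71 and 5.73 on ap_GFP and at 5.29, 4.84 and 5.08 on slou_RFP, a difference of 0.64 ± 0.12. Its second probe set also had all ap_GFP arrays above all slou_RFP arrays, by 0.16. The largest of these 20 differences, that of CG8157 (1.00 ± 0.33), rested on wider values of 5.42, 6.47 and 5.10 against 4.48, 4.92 and 4.58, and it was 1.41 without the departing arrays. For lncRNA:CR32027 the difference of 0.86 came mostly from ap_GFP replicate 3 at 7.26, and it was 0.31 without the departing arrays. The others that were higher on ap_GFP were the tetraspanin gene Tsp74F (0.73), CG12768 (0.72), cuff (0.68), a gene of the piRNA pathway, and obst-H (0.64), which encodes a chitin-binding protein. All slou_RFP values of Tsp74F and obst-H lay below the array medians. Without the departing arrays the difference was 0.28 for cuff and 0.39 for CG12768, which had 5.74, 5.81 and 6.23 against 5.17, 4.85 and 5.61.

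In the other direction the glutathione S-transferase gene GstE5 had the largest difference at -0.76 ± 0.37, with 4.27, 4.05 and 4.56 on ap_GFP against 4.62, 5.92 and 4.64 on slou_RFP. One array, slou_RFP replicate 2, sets that value, and the difference was -0.47 without the departing arrays. CG42755 was steadier at 4.08, 4.09 and 4.02 on ap_GFP against 4.54, 4.52 and 4.65 on slou_RFP, a difference of -0.51 ± 0.09 (limma, adjusted p = 0.939). Its ap_GFP values lay below the array medians. The gene vir-1, also on the list of glial markers, was at 5.91, 6.18 and 6.08 on ap_GFP and at 6.52, 6.56 and 6.55 on slou_RFP. Its difference was -0.48 ± 0.14 and stayed at -0.49 without the departing arrays, with twi_actin_GFP higher at 7.53 to 8.02.

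The others that were lower on ap_GFP were CG7997 (-0.60), CG42365 (-0.57), CG5835 (-0.54), the ciliary gene Cc2d2a (-0.50), the replication origin gene Orc2 (-0.49), PGAP5 (-0.48) and CG31380 (-0.48). Without the departing arrays the difference was -0.24 for CG7997, -0.28 for Cc2d2a and -0.30 for CG31380. All ap_GFP values of Cc2d2a and CG31380 lay below the array medians. Orc2 was dim too, at 4.54, 3.92 and 4.41 on ap_GFP against 4.69, 5.11 and 4.55 on slou_RFP. Since the 20 genes were picked for groups that do not overlap, omitting or weighting arrays could not change their direction. Their kept direction is thus no support. Under the alternative settings the differences lay between -0.98 and -0.24 for the lower and between 0.23 and 1.41 for the higher genes. The smallest adjusted p that any of the 20 reached was 0.0511, for CG7131.

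**Figure D3:**
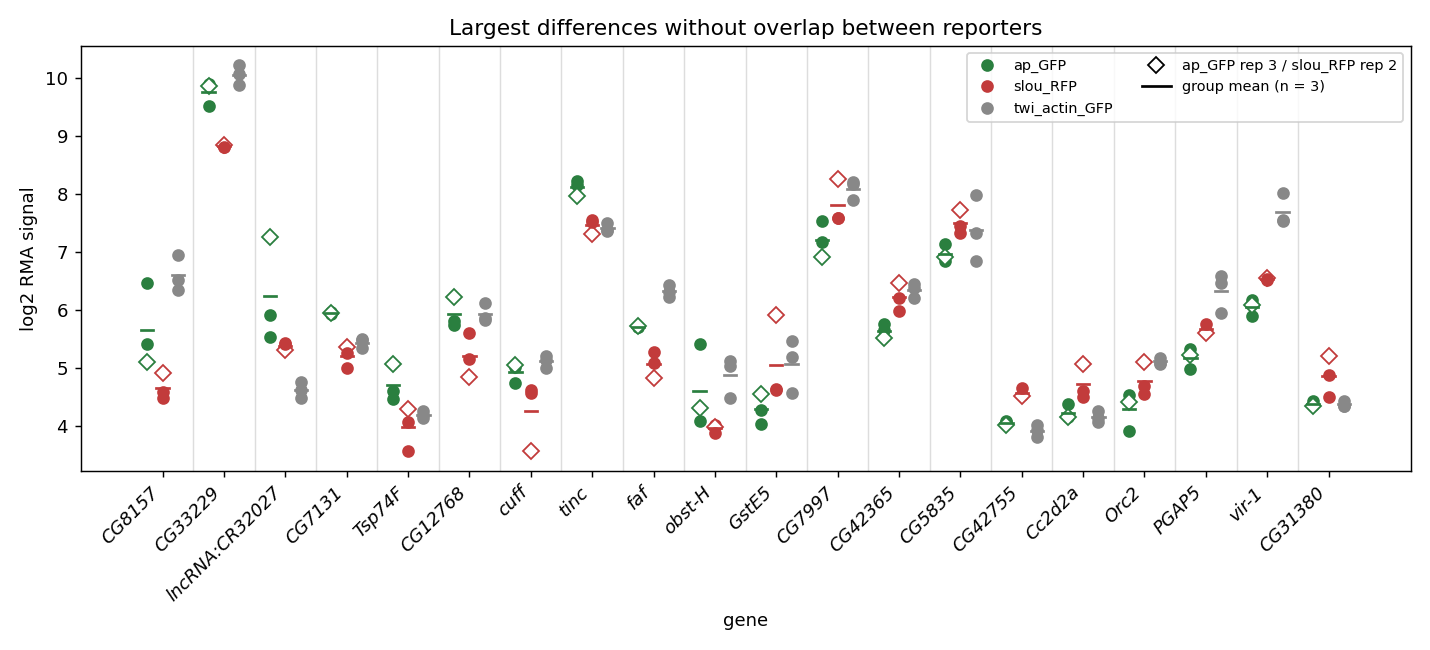
Log2 RMA signal on each array of the 20 genes with the largest differences among those whose 3 ap_GFP and 3 slou_RFP values do not overlap. Bars are means of 3 arrays, open diamonds mark ap_GFP rep 3 and slou_RFP rep 2, and none of these genes passed the test at an adjusted p below 0.05 in limma.

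Other genes met the submitters' rule but were outside those 20, and they are named here after their values were seen. MCU, which encodes the mitochondrial calcium uniporter, was at 8.75, 8.59 and 7.04 in the ap_GFP arrays and at 7.19, 6.07 and 7.32 in the slou_RFP arrays, with 5.13 to 5.56 in twi_actin_GFP. Its 2 highest arrays were ap_GFP replicates 1 and 2, while each departing array was the lowest of its group. The difference was 1.26 ± 0.48 with all arrays and 1.41 ± 0.15 without the departing arrays (limma, adjusted p = 0.994 and 0.0927). The bHLH gene net went the other way, at 9.80, 9.76 and 10.67 on ap_GFP and at 11.13, 10.24 and 11.18 on slou_RFP. Its difference was -0.78 ± 0.33 with all arrays and -1.38 ± 0.18 without the departing arrays (limma, adjusted p = 0.994 and 0.182). For both genes the smaller error without the departing arrays follows in part from how those arrays were picked.

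Probe sets of a gene did not always go together. CG8026 had a difference of 0.81 on one probe set and -0.04 on its brighter one. For the ribosomal protein gene RpL3 one probe set differed by 0.79, and by 0.47 without the departing arrays, while the brightest differed by 0.05 and the dimmest by -0.10. The Osiris gene Osi19 differed by 0.89, at 5.89, 6.17 and 7.07 on ap_GFP against 5.05, 6.06 and 5.34 on slou_RFP. CG14186 did not overlap between the reporters but was dim, at 3.20, 3.27 and 3.37 on ap_GFP against 3.67, 4.59 and 3.94 on slou_RFP, a difference of -0.79.

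Without the departing arrays some differences were larger. MtnA, a metallothionein gene, was at 9.12 and 9.55 on ap_GFP replicates 1 and 2 and at 7.87 and 7.97 on slou_RFP replicates 1 and 3. It reached 11.16 and 12.24 on the departing arrays, and 11.98 to 12.06 on twi_actin_GFP. The difference among the 4 arrays was 1.41 (limma, adjusted p = 0.0659, the smallest of this fit), against 0.58 with all 6. The Notch target gene E(spl)m7-HLH, a bHLH repressor, was at 10.54 and 10.39 on those ap_GFP arrays and at 11.20 and 11.16 on those slou_RFP arrays, a difference of -0.72 (limma, adjusted p = 0.250). On the departing arrays it stood at 10.31 and 9.66, and with all 6 arrays the difference was -0.26.

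Of the 34 probe sets that met the submitters' rule as higher on ap_GFP in this fit, 27 had a twi_actin_GFP mean above both muscle reporter means. The share of 79.4% compares with 29.0% over all probe sets. Among the 7 that met it as lower the count was 0. On 32 of the 34, slou_RFP replicate 2 lay above slou_RFP replicates 1 and 3, whose low values had entered the choice. Over all probe sets this was so on 7815 of 16377. The labels give a lower resort purity for ap_GFP (74%) than for slou_RFP (87%), and its part in these differences was not tested. Markers of other cell types went both ways without the departing arrays. Their list medians of the difference were above 0 for trachea (0.36), hemocytes (0.14), visceral mesoderm (0.13), salivary gland (0.09), germ cells (0.09), fat body (0.06), cardiac mesoderm (0.03) and epidermis (0.02). The medians were below 0 for gut (-0.08), neuroblasts (-0.08), tendon cells (-0.02), neurons (-0.02) and glia (-0.01). On the 4 arrays the mean signal of the 3 tracheal markers was 7.48 to 7.56 on ap_GFP and 7.10 to 7.12 on slou_RFP, and that of the 6 gut markers was 6.19 to 6.66 and 6.42 to 6.55. The part of these cell types in the differences was not tested.

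Fusion genes were high on all 6 arrays and similar between the reporters. Fusion-competent myoblasts carry the adhesion receptor Sns, and their 7 listed genes had a mean log2 signal of 11.14 to 11.65 on ap_GFP and 10.74 to 11.53 on slou_RFP, against 8.20 to 9.15 on twi_actin_GFP. All 7 differences were above 0, as were 5778 of 10563 over all named genes, and genes share arrays. The list median was 0.11, and 0.04 without the departing arrays. Of these genes 0 were called or parted the groups, beside 7.11% of all probe sets on which the groups were parted. Signals of sns were 11.40, 11.22 and 10.25 on ap_GFP and 11.27, 9.37 and 11.21 on slou_RFP, lowest on the departing array of each group. The sns difference of 0.34 became 0.07 without these arrays. The receptor gene hbs was at 11.08, 10.62 and 10.13 on ap_GFP and at 10.60, 9.43 and 10.61 on slou_RFP, a difference of 0.40 (-0.37 to 1.16) that became 0.25 without the departing arrays.

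In the wider founder cell and fusion list 12 of 14 measured members had a difference above 0, beside 5778 of 10563 named genes. The list median was 0.11, and 0 were called. The adhesion gene rst was at 12.43 to 12.61 on ap_GFP and at 11.90 to 12.47 on slou_RFP (0.26, -0.09 to 0.60), and its difference was 0.12 without the departing arrays. Only Abi, a subunit of the SCAR actin-regulating complex, had all ap_GFP arrays above all slou_RFP arrays in this list, by 0.11. Over all probe sets this was so on 3.22%. Without the departing arrays the list median was 0.03.

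Among mesodermal and myogenic regulators the repressor gene sna (snail) was at 9.07, 9.26 and 9.05 on ap_GFP and at 9.64, 9.31 and 9.68 on slou_RFP. All slou_RFP arrays lay above all ap_GFP arrays. The sna difference was -0.42 ± 0.16 (-0.78 to -0.06; limma, adjusted p = 0.994), and -0.50 without the departing arrays. The visceral mesoderm factor gene bin parted the groups the other way at a low level, by 0.20. Its second, dimmer probe set differed by -0.03, and there the groups overlapped. Of the 10 measured regulators 5 had differences above 0 and 5 below, with a median of -0.01.

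Sarcomere genes were split as evenly, with 10 of 19 measured members above 0, a median of 0.05 and 0 calls. The troponin T gene up was at 9.42, 9.14 and 9.87 on ap_GFP and at 8.91, 9.57 and 9.05 on slou_RFP (0.30, -0.28 to 0.87). The mean level of the list was highest on the departing arrays, at 9.41 and 9.61, and at 8.87 to 9.16 on the other 4. Genes of muscle attachment and guidance had a median of 0.05 over 21 members. Among them the netrin gene NetB, a guidance ligand, was at 7.71, 7.66 and 7.69 on ap_GFP and at 7.38, 6.47 and 7.48 on slou_RFP. Its groups do not overlap, and the difference was 0.58 ± 0.23 (0.05 to 1.11; limma, adjusted p = 0.994), or 0.26 without the departing arrays.

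Signalling, cell cycle and housekeeping lists showed no calls either. Of 10 measured Notch pathway genes 6 were above 0, with a median of 0.05 that became -0.10 without the departing arrays. The gene H (Hairless), whose product holds the Notch effector in a repressing complex, was at 9.20, 9.07 and 8.19 on ap_GFP and at 9.14, 7.07 and 9.10 on slou_RFP. Cell cycle genes had a median of 0.11 over 11 members, with the largest difference for the replication licensing gene Cdc6 (0.71, -0.14 to 1.56), which was at 6.65 on slou_RFP replicate 2 and at 8.13 to 8.53 on the other 5 arrays. The Cdc6 difference was 0.16 without the departing arrays. Heat shock and stress genes had the lowest median of all lists, at -0.17 over 12 members and -0.24 without the departing arrays. Hsp27, a small heat shock protein gene, was at 12.24, 12.77 and 13.20 on ap_GFP and at 12.94, 13.34 and 12.97 on slou_RFP. The 13 respiratory chain genes differed by -0.11 to 0.07, and the 10 ribosomal protein genes by -0.02 to 0.05. The ribosomal protein genes averaged 14.17 to 14.22 on the 6 arrays, near the array maxima of 14.61 to 14.64. So near the top of the scale, small differences do not show equal levels.

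Markers of other cell types were read as lists, since both sorts held other cells. The 14 hemocyte markers had a mean log2 signal of 6.29 to 6.75 on ap_GFP and 6.26 to 6.44 on slou_RFP, against 8.12 to 8.70 on twi_actin_GFP. Those of 6 fat body markers were 7.75 to 8.13, 7.74 to 7.83 and 9.92 to 10.14 in the same order, and those of 3 tracheal markers 7.48 to 7.95, 7.10 to 8.47 and 10.01 to 10.54. With all 6 arrays the muscle reporters overlapped on each of these lists. The 5 visceral mesoderm markers averaged 4.63 to 4.95 on ap_GFP and 4.59 to 5.05 on slou_RFP, near the array medians. The hemocyte glycoprotein gene Glt (Glutactin) was at 8.40, 8.93 and 8.56 on ap_GFP and at 7.82, 8.63 and 8.03 on slou_RFP (0.47, -0.06 to 1.00). The Glt difference was 0.74 without the departing arrays (limma, adjusted p = 0.851).

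Over all lists 230 genes were measured and 0 were called. At an unadjusted p below 0.05, 2 were higher and 2 lower, beside 2.63% of all probe sets, and on 9 the groups did not overlap, beside 7.11%. The genes at that p were NetB and sha above 0 and vir-1 and sna below 0. The median difference was 0.01 over the 230 listed genes, and 0.02 over the 10563 named genes. Several lists share members, such as bin, bap and Hand, so that their counts are not independent.

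**Figure D4:**
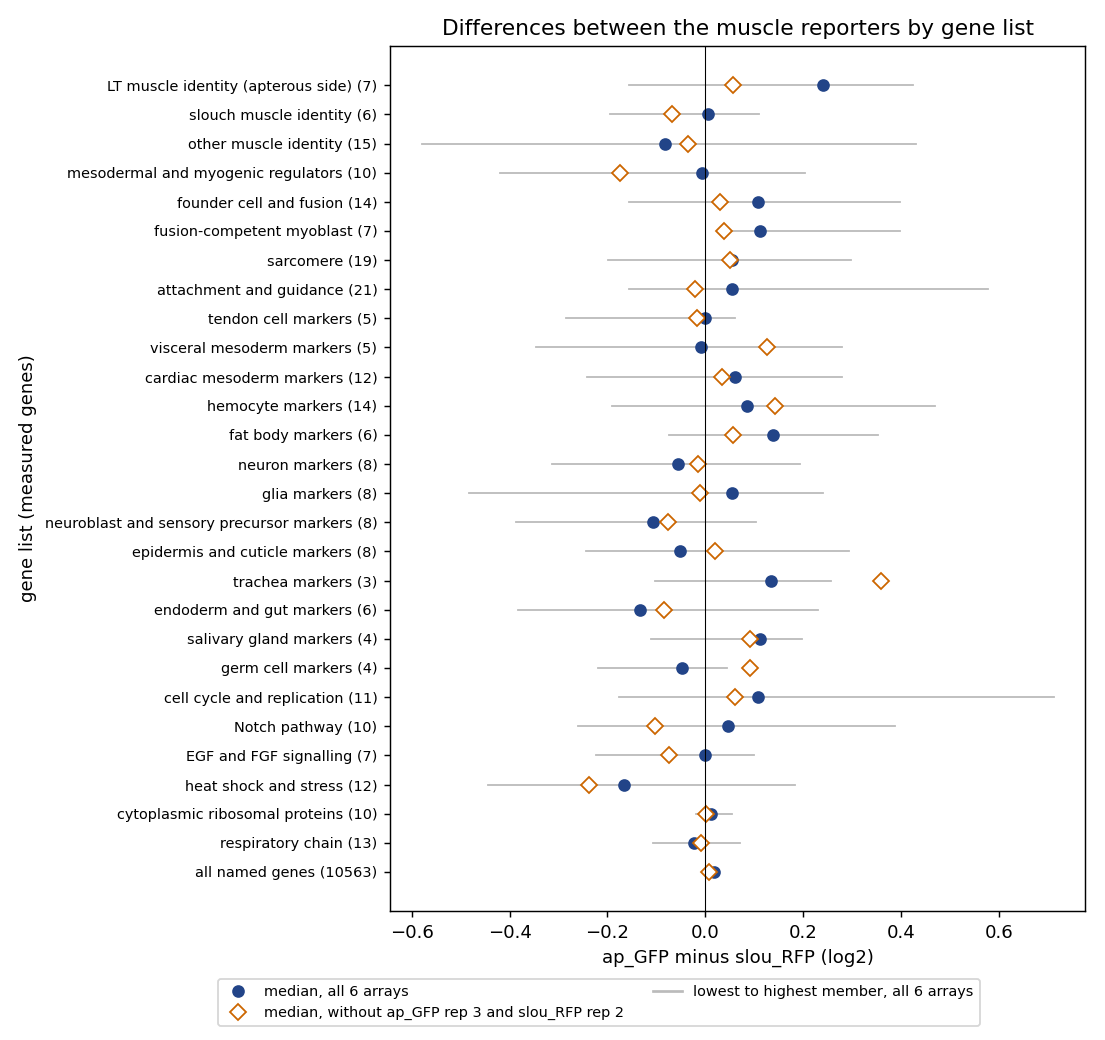
Difference ap_GFP minus slou_RFP in log2 for each gene list, with filled circles for the median over measured genes with all 6 arrays, open diamonds for the median without ap_GFP rep 3 and slou_RFP rep 2, and lines from the lowest to the highest member. With all 6 arrays the list medians lie between -0.17 and 0.24, and the median of all 10563 named genes is 0.02.

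The departures of ap_GFP replicate 3 and slou_RFP replicate 2 went largely in the same direction. Relative to the mean of its group's other arrays, ap_GFP replicate 3 was more than 2-fold higher on 307 probe sets and lower on 261. For slou_RFP replicate 2 the counts were 520 and 933. Both arrays were higher on 212 probe sets, which is 69.1% of the first array's list and 40.8% of the second's, and both were lower on 200 (76.6% and 21.4%). They went opposite ways on 3. Across the 16377 probe sets, which share arrays and are not independent, the departures correlated at r = 0.668.

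The receptor guanylate cyclase gene Gyc32E had the largest negative departure on both arrays. It was at 13.68 and 13.57 on ap_GFP replicates 1 and 2 and at 13.59 and 13.64 on slou_RFP replicates 1 and 3, but at 4.77 and 6.39 on the departing arrays. The Pax6 gene toy was at 8.77 to 9.11 on the 4 arrays and at 4.52 and 4.20 on the departing ones. Among the genes that were higher, CG4250 was at 7.39, 11.66 and 13.66 on ap_GFP and at 4.83, 13.16 and 4.74 on slou_RFP. Here ap_GFP replicate 2 was also far above ap_GFP replicate 1. CG18754 (4.62, 7.73 and 10.34 against 4.06, 9.68 and 4.25) and CG11854 (3.15, 6.16 and 9.04 against 3.37, 8.28 and 3.21) were likewise highest on the departing arrays, with ap_GFP replicate 2 next.

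For these genes the error of the reporter difference was large. The difference was 3.33 ± 2.29 for CG4250 (-1.90 to 8.56) and -0.53 ± 2.61 for Gyc32E (-6.48 to 5.42). Without the departing arrays it was 4.74 for CG4250 and 0.01 for Gyc32E. Many other departures passed 2-fold on one array only. Of those of slou_RFP replicate 2, 40.8% of the higher and 21.4% of the lower probe sets did so on both arrays. Jon99Fi, a serine protease gene, was at 6.64 on ap_GFP replicate 3 and at 2.74 to 3.05 on the other 5 arrays. The labels give no batch, date or handling that sets these 2 arrays apart from the other 4. Over all probe sets the signal quartiles of slou_RFP replicate 2 lay closer together, at 3.64 and 7.45. On the other 5 muscle reporter arrays they were 3.46 to 3.53 and 7.64 to 7.75. The part of this array-wide difference in the departures was not tested.

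**Figure D5:**
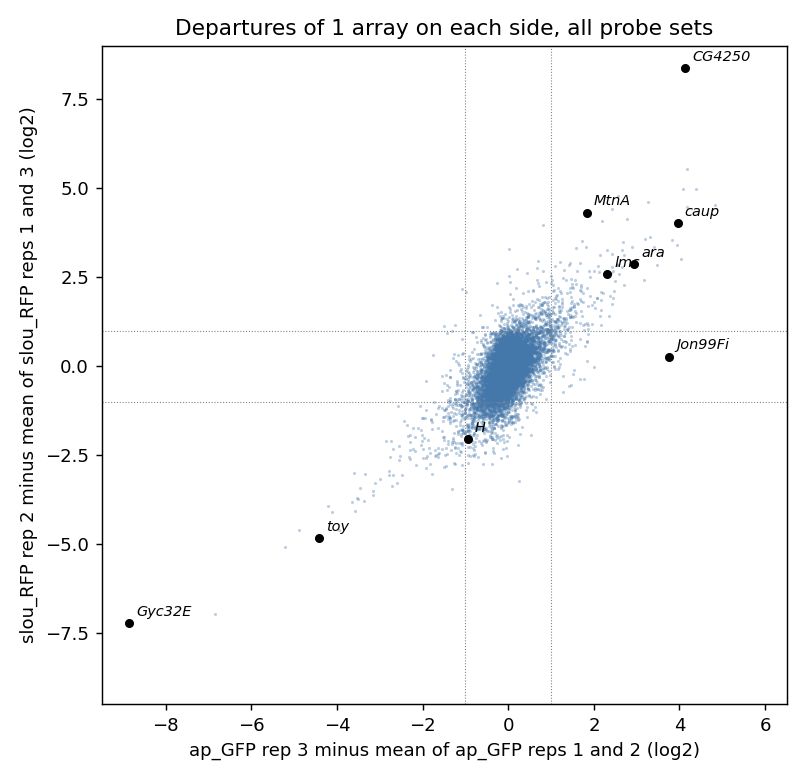
For every probe set, the log2 departure of ap_GFP rep 3 from the mean of ap_GFP reps 1 and 2 (horizontal axis) against that of slou_RFP rep 2 from the mean of slou_RFP reps 1 and 3 (vertical axis), with dotted lines at 2-fold and some genes of the text marked. The points run along a rising line (r = 0.668), with Gyc32E and toy at the low end and CG4250 at the high end.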

How the data were processed

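Per the labels, RNA from sorted cells was hybridized to Affymetrix Drosophila GeneChip 2.0 arrays. Per the submitters' processing notes the deposited values are RMA signals, with Partek also named and versions not given in the sources used here. Their range shows that the deposited values are on a log2 scale. RMA gives no detection call, and the number of arrays limits the precision. No normalization or filter was added to them. Of 16377 probe sets, 11899 had 1 gene in the platform annotation, 353 several and 4125 were unnamed. The RefSeq table held the ID of 11806. Where a gene (of 10563) had several probe sets, the brightest on average over 9 arrays represented it.

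All 9 arrays entered 1 model of 3 group means in limma 3.58.1 (R 4.3.3) with moderated variances, with Benjamini-Hochberg adjustment of p across the 16377 probe sets. A call needs an adjusted p below 0.05. A value after ± is the standard error from that model. Named genes were called genes, the 10 largest non-overlapping differences per direction, the reporter and identity genes, up to 4 genes per list by p, and the 10 largest departures per direction of each departing array. The 27 gene lists and the members were chosen with earlier results of these data known. Lists were given no test. Alternatives were further normalization, a filter, other variance models, array weights, a replicate block and omitted arrays. The deviations of same-numbered arrays correlated at r = 0.491, -0.563 and -0.618, and those of different-numbered arrays at -0.639 to 0.668. The departing arrays carry different numbers, so these values cannot settle whether same-numbered arrays are paired. The numbers count sorts within a transgene. The fit was tested on simulated arrays.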

Additional observations from a re-analysis of the deposited data

How the results depend on the processing

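The count of called probe sets was 0 under every alternative run, namely the 6 arrays alone, quantile normalization, median centring, the filter on dim probe sets, a variance trend, no moderation, array weights, the replicate block and each omitted array, and the same holds for the reporter, identity and listed genes. The replicate block left 11 probe sets past the submitters' rule and 404 at an unadjusted p below 0.05, against 11 and 430. Past the submitters' rule there were 6 (4 higher, 2 lower) with the 6 arrays alone, 7 (5 and 2) with the filter, 5 (4 and 1) without moderation, 57 (51 and 6) with array weights, 11 (9 and 2) with median centring, 41 (34 and 7) without both departing arrays and 37 (30 and 7) with the other 4 muscle reporter arrays only, a setting chosen after seeing the data. At an unadjusted p below 0.05 these counts were 233, 133 (filter), 1371 (weights), 716 (without both) and 801 (4 arrays). The fit without both departing arrays likewise omits arrays that were picked from these same values. Omission of 1 array at a time gave 7 to 59 past the rule, 5 to 43 higher and 2 to 16 lower, and 301 to 850 at an unadjusted p below 0.05. Past the rule there were 23 without ap_GFP replicate 1, 21 without ap_GFP replicate 3, 20, 59 and 42 without slou_RFP replicates 1, 2 and 3, and 7 without twi_actin_GFP replicate 3. Arrays nearest to one of their own reporter numbered 2 of 6, and 0 to 3 with 1 array omitted: 0 without slou_RFP replicate 1 or 3, and 3 without slou_RFP replicate 2. Of 150 named genes 0 were called under any setting, and 30 changed sign without both departing arrays. Signal near the lower end of the scale limits dim genes.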

Other observations

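Among the 41 probe sets that met the submitters' rule without the departing arrays were those of Osi6, Osi9, Osi15 and Osi19. These genes are named after their values were seen, and no count or test of their gene family was made. The values of Osi19 are given above. Osi6 was at 11.39, 9.36 and 9.28 on ap_GFP and at 8.83, 11.05 and 8.91 on slou_RFP. Osi15 was at 7.78, 7.57 and 8.16 on ap_GFP and at 6.70, 8.14 and 6.65 on slou_RFP. Osi9 was at 4.66, 4.92 and 6.48 on ap_GFP and at 3.78, 5.24 and 3.62 on slou_RFP. For each of these genes slou_RFP replicate 2 stood above the other slou_RFP arrays, and the reporters overlapped. The differences without the departing arrays were 0.84 for Osi19, 1.00 for Osi15 and 1.09 for Osi9, and that of Osi6 was larger. All of these genes were higher on twi_actin_GFP by its mean than on either muscle reporter.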
